A study of Arabidopsis thaliana with 30 samples.

Results

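10 genes of jasmonate synthesis and response were followed in Arabidopsis thaliana seedlings with and without DNA damage. They are the lipoxygenase genes LOX2, LOX3 and LOX4, the allene oxide synthase gene AOS, the allene oxide cyclase genes AOC1, AOC2 and AOC3, the oxophytodienoate reductase gene OPR3, and the vegetative storage protein genes VSP1 and VSP2. The rule names them and uses no measured value, though they were proposed with earlier results of these data known, and all 10 were among the 20404 genes of the deposited table and passed the filter on low values. RNA was sequenced from 7-day-old seedlings of 5 genotypes, all in the Columbia background, with 3 libraries in each of 10 groups. The mutants were h2a.x-1 (X), which concerns the histone variant H2A.X, h2a.w-2 (W), which concerns the variant H2A.W, the combined h2a.x/w-2 (XW), and tsk, which concerns the DNA repair protein TONSOKU. Col was the wild type. Each genotype was treated with methyl methanesulfonate (MMS, a DNA-alkylating agent) or mock-treated.

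The labels give neither the dose nor the duration of MMS, nor the kind of lesion in each mutant, and the tissue field reads leaves where the protocol speaks of seedlings. No label says that the replicates came from separate cultures, so the p-values measure the spread between these libraries, which may be technical. Of 6 targeted genes (TSK, HTA3, HTA5, HTA6, HTA7 and HTA12), only HTA5 was lower in X than in Col, in mock (log2 fold change -2.44) and under MMS (-2.07). HTA3 was thus not lower in X. Only TSK was lower in tsk, in mock (-1.54) and under MMS (-1.33). In W mock HTA6 was lower (-0.52) and 3 of the 6 were higher, and in W MMS none was lower (lowest -0.03) and 3 were higher. None was lower in XW, with 1 higher in mock (lowest -0.19) and 5 higher under MMS (lowest 0.23), so XW stands here for the libraries labelled with the combined genotype, and W likewise rests on its label under MMS. Reads summed over the genes of the deposited table, recovered from its values, were 15343687 to 25115027 per library. XW mock replicate 1 lay farthest from its group, with a root mean square distance over all tested genes of 0.345 on the log2 scale, against 0.232 to 0.306 in the other libraries. All 24 leaf markers and 19 of 20 root markers were in the table. None was at 0 in any library, but no gene of the deposited table was, so this says nothing about tissue content.

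Jasmonate is an oxygenated fatty acid hormone of wounding, herbivore defence and fertility. In the chloroplast a 13-lipoxygenase oxygenates linolenic acid, allene oxide synthase dehydrates the product, and allene oxide cyclase closes the ring to give oxophytodienoic acid. OPR3 reduces that ring in the peroxisome, where beta-oxidation then shortens the side chain. The isoleucine conjugate binds the receptor COI1, which leads to loss of JAZ repressors and release of MYC transcription factors. Synthesis genes are themselves jasmonate-inducible in leaves. VSP1 and VSP2 encode acid phosphatase-like proteins and are widely read as markers of the MYC branch of the response.

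The positions below are in TAIR10.1, from the RefSeq annotation, while the submitters' notes name TAIR10. LOX2 (AT3G45140) lies at chr3:16525245-16529352, LOX3 (AT1G17420) at chr1:5977323-5981521 and LOX4 (AT1G72520) at chr1:27308513-27312756. AOS (AT5G42650) lies at chr5:17097564-17099595 and OPR3 (AT2G06050) at chr2:2359114-2362375, both on the minus strand. The cyclase genes AOC1 (AT3G25760, chr3:9403779-9405338), AOC2 (AT3G25770, chr3:9406669-9408071) and AOC3 (AT3G25780, chr3:9409160-9411090) stand in a row on the plus strand. VSP1 (AT5G24780, chr5:8507590-8509201) and VSP2 (AT5G24770, chr5:8500468-8502224) are neighbours on the minus strand. None of the 10 overlaps another annotated gene. Transcripts of the closest pair, VSP1 and VSP2, were 89.4% identical over their aligned bases, AOC1 and AOC2 84.7%, and LOX3 and LOX4 80%. No window of 150 nt was shared by any of the 6 related pairs compared, though short stretches were, and how the authors counted reads that fit several genes is not given in the sources used here.

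Sequences around the start sites were read from TAIR10.1 to show what the promoters of the members have in common. In the window of 250 bases before to 50 bases after each annotated start, the letters AACGTG, known as the T/G-box and a binding sequence of MYC factors, were found on either strand in 5 of 10 members and in 9.05% of 19815 promoters. The G-box CACGTG was in 1 member, AOS, and in 8.95% of promoters. Of the sequences CCGTCC and CCGACC, searched on both strands, CCGTCC was in LOX3, LOX4 and AOC1 (3.01% of promoters) and CCGACC in AOC3 (4.48%). LOX3 and LOX4 shared an unbroken run of 16 bases, and its inner 13 bases go from AACGTG to GGACGG. The 13 bases were picked from these 2 genes, so their 2 matches among the 19815 promoters were given beforehand. No other promoter held them. Longer runs were shared by AOC1 and AOC2 (26 bases) and by VSP1 and VSP2 (23 bases). The 2 boxes in the LOX run do not overlap. The run of 13 began 18 bases after the annotated first base in LOX3 and 94 bases before it in LOX4. In AOC2 the T/G-box began 40 bases after the annotated first base, so the matches of LOX3 and AOC2 lie within the annotated genes. The stretches below show the boxes in capitals, 5′ to 3′ on the strand of the gene, where CACGTT is AACGTG and GGACGG is CCGTCC on the other strand.
LOX3 chr1:5977333-5977362 plus strand: atcaacaaAACGTGtGGACGGcaagggttc
LOX4 chr1:27308411-27308440 plus strand: attaaaaaAACGTGtGGACGGcgaaaagct
AOC1 chr3:9403633-9403662 plus strand: acaagtcgCACGTTtttcatttttctttct
AOC2 chr3:9406689-9406718 plus strand: ccaagacccaatgcttagatCACGTTccga
VSP1 chr5:8509350-8509379 minus strand: atacacatCACGTTttgcattattgttttt
AOS chr5:17099580-17099609 minus strand: agtcaaagCACGTGgctaaatgaatcggcc

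The 250 bases upstream of the VSP pair are shown because VSP2 had the largest MMS response of the 10 genes in Col and its neighbour VSP1 a smaller one. Of the 250 bases of each, 163 were aligned to a base of the other and the rest faced gaps. Over these 163 aligned bases the 2 sequences were 90.2% identical, and 2 of the 6 bases of the T/G-box faced a gap. The T/G-box (capitals) was in the window of VSP1, and these letters were not in that of VSP2. A match is a description of the letters, not a bound site.
VSP1 chr5:8509202-8509451 minus strand: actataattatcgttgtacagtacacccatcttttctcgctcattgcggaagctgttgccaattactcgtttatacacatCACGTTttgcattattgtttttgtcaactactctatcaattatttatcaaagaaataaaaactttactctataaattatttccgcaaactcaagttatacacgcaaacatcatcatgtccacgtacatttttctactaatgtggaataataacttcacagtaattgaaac
VSP2 chr5:8502225-8502474 minus strand: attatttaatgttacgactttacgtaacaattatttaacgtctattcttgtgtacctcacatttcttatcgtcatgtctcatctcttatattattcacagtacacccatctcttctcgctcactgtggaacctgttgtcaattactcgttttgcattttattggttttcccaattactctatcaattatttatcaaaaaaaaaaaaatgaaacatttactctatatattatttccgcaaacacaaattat

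**Figure D1:**
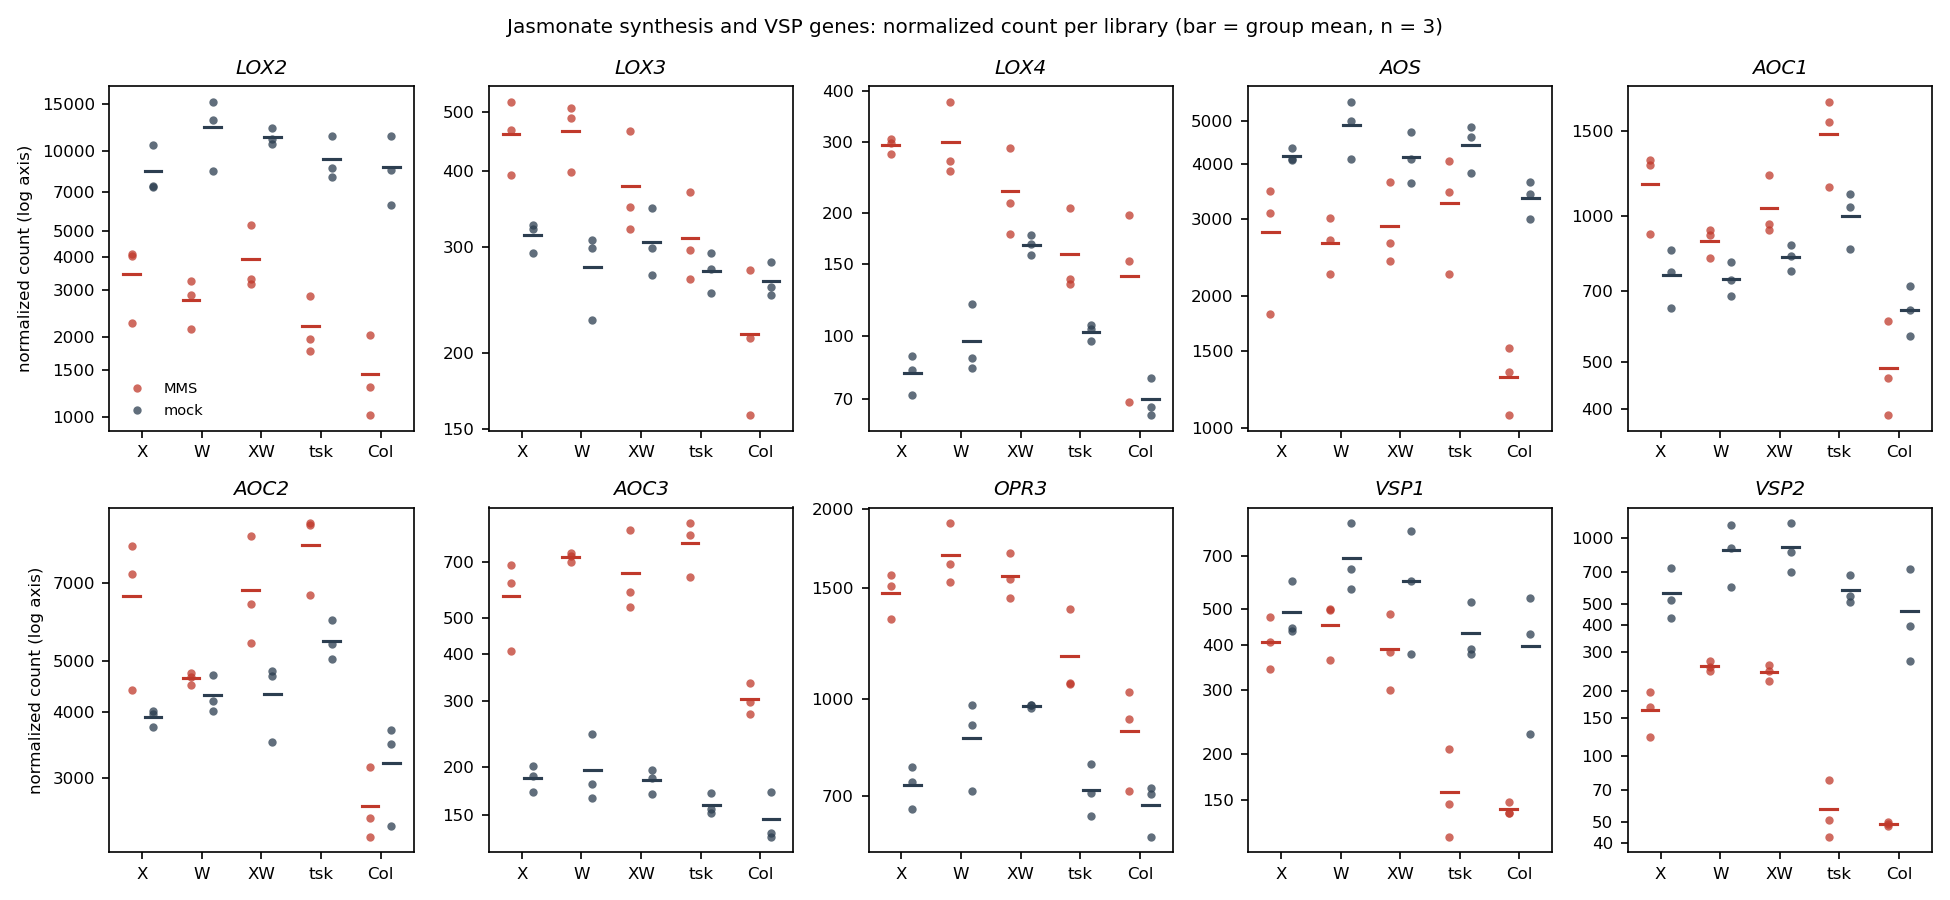
Normalized count of each gene in each library (log axis), by genotype, with MMS left of mock. Bars are group means (n = 3). For VSP2 the X, W and XW MMS libraries (122 to 274) lie above all Col MMS libraries (48.1 to 50), while tsk MMS libraries (42.8 to 77.5) overlap Col MMS.

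The question first asked was how the mutants differed from Col under MMS. All 10 genes rose in X MMS, in W MMS and in XW MMS relative to Col MMS, and 6 rose in tsk MMS. The median log2 fold change of the 10 was 1.23 in X, 1.08 in W, 1.12 in XW and 0.59 in tsk, where the medians of all tested genes were 0.00, 0.01, -0.00 and -0.03. Among all 20256 tested genes, 6.46% were higher in X MMS, 7.75% in W MMS, 12.8% in XW MMS and 12.8% in tsk MMS. No member was lower in any mutant under MMS, where 4.5%, 3.93%, 12.5% and 17.5% of all genes were lower in X, W, XW and tsk. The split of all genes depended on the scaling: on the FPKM values 4.91% were higher and 7.16% lower in X MMS, 6.22% and 6.64% in W MMS and 17.5% and 10.8% in tsk MMS. Calls are limma tests on log2(normalized count + 1) with Benjamini-Hochberg adjustment over all tested genes (adjusted p under 0.05), and the 4 comparisons share the Col MMS libraries. edgeR and DESeq2 on recovered reads, and the FPKM values, called 10, 10, 10 and 6 members as well.

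LOX2, the most abundant 13-lipoxygenase transcript and the enzyme of rapid jasmonate synthesis in wounded leaves, had 2252, 4098 and 4027 normalized counts in X MMS and 2886, 2140 and 3252 in W MMS. It had 5279, 3291 and 3155 in XW MMS and 1969, 1770 and 2853 in tsk MMS, against 1294, 2033 and 1018 in Col MMS. Every X, W and XW library lay above the Col libraries, and tsk overlapped them. LOX2 was higher in X (log2 fold change 1.26, SE 0.26, adjusted p = 0.0019), W (0.97, adjusted p = 0.015) and XW (1.45, adjusted p = 0.00014), and in tsk the value was 0.63 (adjusted p = 0.07). The W call was lost without Col MMS replicate 1 (adjusted p = 0.056), Col MMS replicate 3 (adjusted p = 0.11) or W MMS replicate 3 (adjusted p = 0.078), and in tsk LOX2 was called without Col MMS replicate 2 (0.91, adjusted p = 0.016). In bulk seedlings, fewer cells of a type and less RNA per cell cannot be told apart.

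LOX3 and LOX4, lipoxygenases with roles in flower fertility and in systemic wound responses, were far less abundant. LOX3 averaged 460 normalized counts in X MMS, 465 in W MMS, 379 in XW MMS and 310 in tsk MMS, against 215 in Col MMS. LOX4 had 298, 281 and 305 in X MMS, 377, 255 and 269 in W MMS, 290, 178 and 212 in XW MMS and 138, 134 and 206 in tsk MMS, against 153, 198 and 68.8 in Col MMS. X and W libraries stood clear of Col for both genes, and XW and Col libraries overlapped for LOX4. LOX3 rose in all 4 mutants (log2 fold change 1.12 in X, 1.14 in W, 0.83 in XW and 0.54 in tsk). LOX4 rose 2.29-fold in X (SE 0.24 on the log2 scale, adjusted p = 0.0012), 2.3-fold in W (adjusted p = 0.001) and 1.73-fold in XW (0.79 on the log2 scale, adjusted p = 0.014), with a log2 fold change of 0.29 in tsk (adjusted p = 0.39). The XW value was 0.35 without Col MMS replicate 3 (adjusted p = 0.22) and was 0.60 without XW MMS replicate 1 (adjusted p = 0.1).

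AOS, the single enzyme that commits the lipoxygenase product to jasmonate, had 1822, 3464 and 3096 normalized counts in X MMS, 2240, 2676 and 3010 in W MMS, 3630, 2642 and 2402 in XW MMS and 4053, 2240 and 3458 in tsk MMS, against 1339, 1523 and 1070 in Col MMS. All 12 mutant libraries exceeded the highest Col library. The log2 fold changes were 1.05 in X, 1.02 in W, 1.13 in XW and 1.28 in tsk (SE 0.20 each), with adjusted p-values of 0.00059, 0.00079, 7.8e-05 and 1e-05 in that order. The 3 cyclase genes rose in all 4 mutants. AOC1 changed by 1.27 in X, 0.89 in W, 1.11 in XW and 1.61 in tsk, and AOC2 by 1.28, 0.81, 1.34 and 1.63. AOC3 had 827, 642 and 890 normalized counts in tsk MMS and 702 to 744 in W MMS, against 278 to 335 in Col MMS. Its log2 fold change was 0.88 in X, 1.26 in W, 1.09 in XW and 1.36 in tsk (SE 0.17). No cyclase library of any mutant fell to the level of Col MMS.

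OPR3, the reductase specific to the jasmonate route, averaged 1473 normalized counts in X MMS, 1690 in W MMS, 1567 in XW MMS and 1169 in tsk MMS, against 889 in Col MMS. It rose in X (log2 fold change 0.74, SE 0.12, adjusted p = 0.00015), W (0.94), XW (0.83) and tsk (0.40, adjusted p = 0.014). In tsk the OPR3 and LOX3 calls were lost without Col MMS replicate 3 (adjusted p = 0.14 for OPR3 and 0.12 for LOX3) and without tsk MMS replicate 3 (adjusted p = 0.13 and 0.086), which leaves 4 called members.

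VSP2 had 122, 198 and 169 normalized counts in X MMS, 274, 256 and 247 in W MMS and 261, 221 and 247 in XW MMS. In tsk MMS it had 42.8, 51 and 77.5, against 48.1, 49.1 and 50 in Col MMS. Libraries of the 3 histone variant mutants all lay above Col, and those of tsk lay on both sides of it. The log2 fold change was 1.68 in X, 2.37 in W and 2.28 in XW (SE 0.26, adjusted p = 7.2e-05, 3.7e-07 and 1.7e-07), and 0.17 in tsk (adjusted p = 0.67). VSP1 changed by 1.51 in X, 1.66 in W and 1.43 in XW, and 0.12 in tsk (adjusted p = 0.77). Compared directly, VSP2 was higher in XW MMS than in tsk MMS (243 and 57.1 normalized counts, log2 fold change 2.11, SE 0.26, adjusted p = 4.4e-07), and VSP1 was higher as well (1.31, adjusted p = 0.00029). LOX2 (0.82, adjusted p = 0.019) and OPR3 (0.43, adjusted p = 0.0082) were also higher in XW MMS than in tsk MMS, and AOC1 was lower (-0.50, adjusted p = 0.014). Of all genes 16.4% were higher and 11.7% lower in that comparison, against 10.3% and 18% on the FPKM values. The LOX2, OPR3 and AOC1 calls were each lost when 1 library was left out: LOX2 without XW MMS replicate 1 (0.58, adjusted p = 0.14) or tsk MMS replicate 1 or 2, OPR3 without tsk MMS replicate 2 (adjusted p = 0.052), and AOC1 without XW MMS replicate 2 or 3 or tsk MMS replicate 1 or 3.

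**Figure D2:**
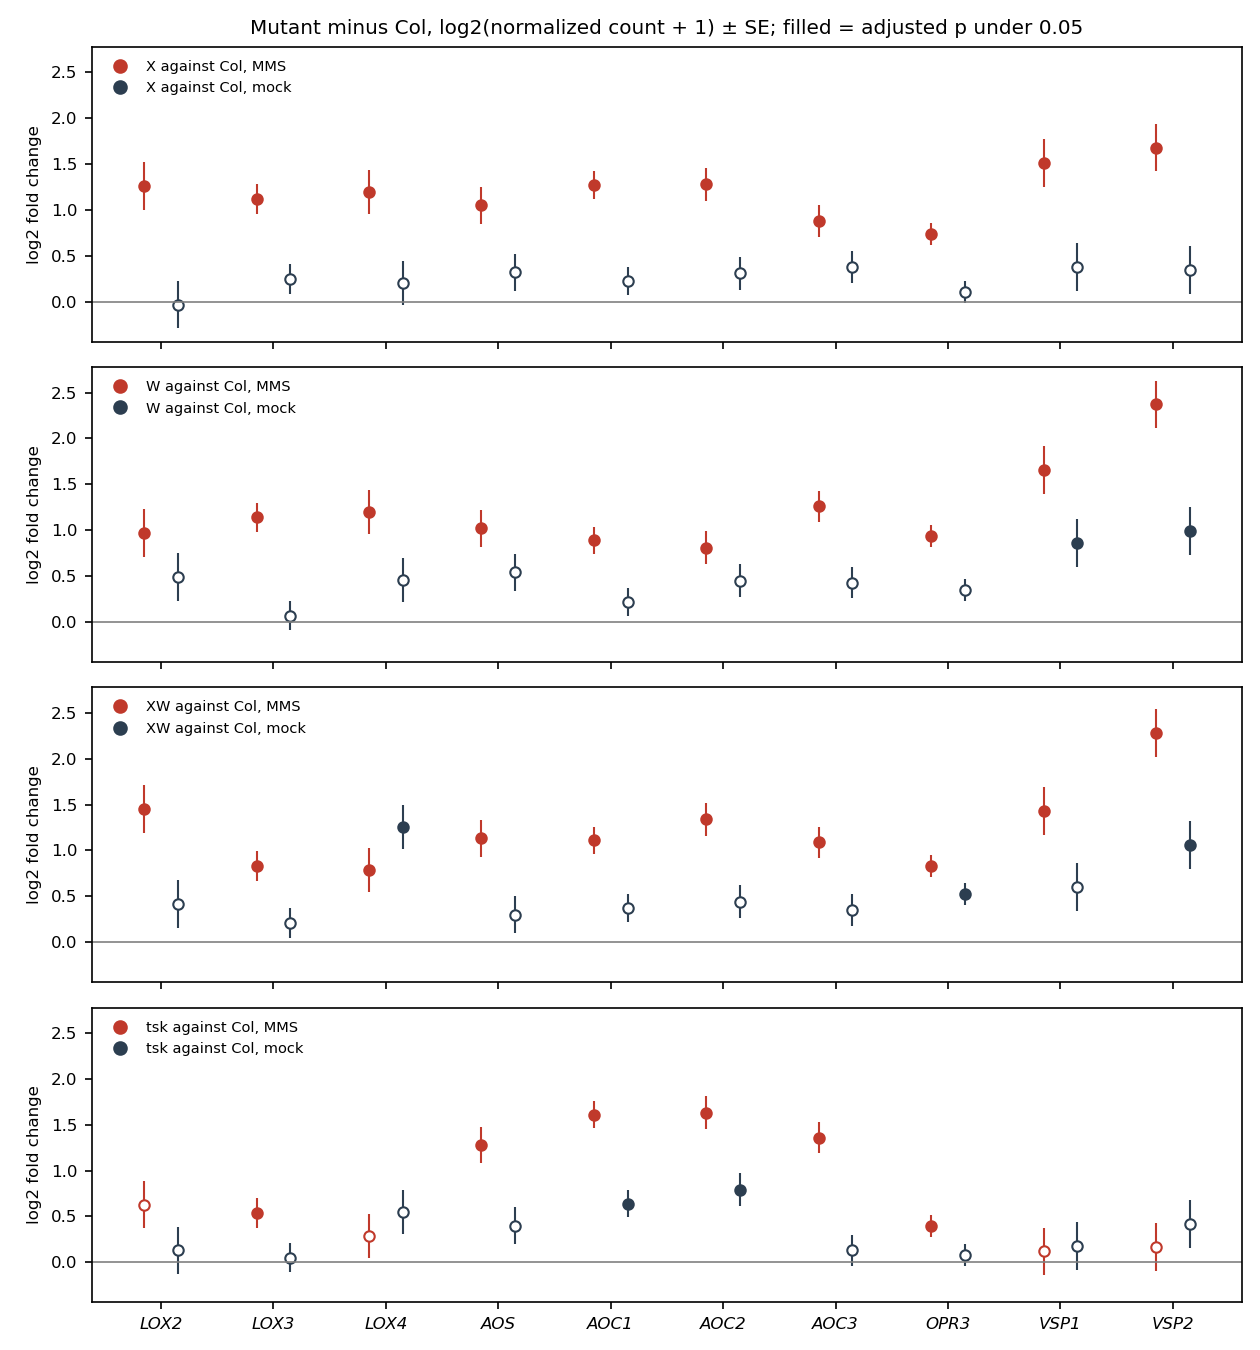
Log2 fold change ± SE of each gene, mutant minus Col, under MMS (red) and in mock (dark), 1 panel per mutant, with filled points for adjusted p under 0.05. Under MMS all 10 points are filled in X, W and XW and 6 in tsk, where VSP1 and VSP2 sit at 0.12 and 0.17.

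Without MMS fewer calls were made. None of the 10 was called in X mock, 2 rose in W mock, 3 in XW mock and 2 in tsk mock, and none fell. In all tested genes 4.29% were higher and 3.2% lower in X mock, 6.05% and 7.08% in W mock, 11.8% and 13.5% in XW mock, and 10.9% and 15.1% in tsk mock. The split turned in tsk mock on the FPKM values (15.3% higher and 6.96% lower) and in XW mock with the compared groups alone (8.75% and 6.25%). In X mock 1 member, AOC3, had an unadjusted p under 0.05 in limma (log2 fold change 0.38, adjusted p = 0.19), and edgeR, DESeq2 and the FPKM values called none. The compared groups alone called 3 in X mock (LOX3 with 0.25, AOS with 0.32 and AOC3 with 0.38). In that setting 8.66% of all genes were higher and 7.02% lower. The medians over the 10 were 0.28 in X, 0.45 in W, 0.43 in XW and 0.29 in tsk.

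In W mock VSP2 had 1144, 595 and 901 normalized counts and in XW mock 866, 1169 and 702, against 274, 722 and 395 in Col mock. Both groups averaged above Col but overlapped it. On the log2 scale VSP2 rose by 0.99 in W mock (SE 0.26, adjusted p = 0.011) and by 1.06 in XW mock (adjusted p = 0.0033), and VSP1 by 0.86 in W mock (adjusted p = 0.025). Both W calls were lost without Col mock replicate 1 (adjusted p = 0.12 for VSP2 and 0.23 for VSP1) or W mock replicate 1 (adjusted p = 0.088 and 0.13), and VSP1 also without W mock replicate 3 (adjusted p = 0.052). LOX4 had 177, 158 and 168 normalized counts in XW mock, against 63.7, 78.8 and 66.8 in Col mock. The XW libraries lay far above Col, and the difference (1.26, SE 0.24, adjusted p = 0.00024) was called with each library left out, XW mock replicate 1 included, as were those of OPR3 and VSP2.

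OPR3 averaged 974 normalized counts in XW mock, against 677 in Col mock, a rise of 0.53 on the log2 scale (SE 0.12, adjusted p = 0.0019). In tsk mock AOC1 (0.64, SE 0.15, adjusted p = 0.0023) and AOC2 (0.79, SE 0.18, adjusted p = 0.0017) rose. AOC2 had 5967, 5361 and 5027 normalized counts there, against 2432, 3477 and 3695 in Col mock, and the groups did not overlap. Set against tsk mock, XW mock had higher LOX4 (0.71, adjusted p = 0.025) and OPR3 (0.45, adjusted p = 0.0062), where 16.8% of all genes were higher and 12.9% lower (11.4% and 19.4% on the FPKM values). The LOX4 call between XW and tsk was lost without XW mock replicate 1 (adjusted p = 0.073) or tsk mock replicate 1 (adjusted p = 0.069) or 2 (adjusted p = 0.055). In tsk mock against Col mock, 9 of the 20 genes nearest to LOX2 had a log2 fold change over 0.5 (median 0.21), while LOX2 itself had 0.13 (adjusted p = 0.76). Around the other members the medians were -0.15 to -0.03.

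The response to MMS within each genotype split the pathway by member. In Col, LOX2 and both VSP genes fell most, AOS and AOC1 fell, AOC3, LOX4 and OPR3 rose, and LOX3 and AOC2 were not called. That is 3 genes higher and 5 lower of 10, in a comparison in which 35.5% of all genes were higher and 35.6% lower. In X 6 rose and 3 fell, in W 4 and 4, in XW 3 and 4, and in tsk 5 and 4. The shares of all genes were 36.3% and 36.9% in X, 36.1% and 36.8% in W, 36.2% and 35.5% in XW and 35.5% and 35.6% in tsk, so the members' counts lie near the background. The median of all genes in Col was 0.01 on the normalized counts and 0.12 on the FPKM values.

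LOX2 had 1294, 2033 and 1018 normalized counts in Col MMS, against 6256, 11302 and 8453 in Col mock. The groups stood far apart, as they did in every genotype. LOX2 fell by 2.60 on the log2 scale in Col (SE 0.26, adjusted p = 7.1e-10), by 1.31 in X, 2.13 in W and 1.56 in XW, and it was 4.28-fold lower in tsk MMS than in tsk mock. VSP2 had 48.1 to 50 normalized counts in Col MMS, against 274 to 722 in Col mock, and 42.8 to 77.5 in tsk MMS, against 507 to 677 in tsk mock. It fell by 3.10 in Col and 3.35 in tsk (SE 0.26), and by 1.77 in X, 1.71 in W and 1.87 in XW. VSP1 fell by 1.40 in Col, 1.47 in tsk, 0.60 in W (adjusted p = 0.039) and 0.57 in XW (adjusted p = 0.048), and in X its value was -0.27 (adjusted p = 0.35). The W and XW calls of VSP1 were lost without several single libraries, among them W mock replicate 1 (adjusted p = 0.18) and XW mock replicate 2 (adjusted p = 0.31).

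AOS fell by 1.36 in Col, 0.63 in X, 0.89 in W, 0.53 in XW and 0.48 in tsk (SE 0.20). The X call was lost without X MMS replicate 1 (adjusted p = 0.097), the XW call without XW mock replicate 2 or XW MMS replicate 2 or 3, and the tsk call without tsk mock replicate 1 or 2 or tsk MMS replicate 2. AOC3 moved the other way, with 335, 298 and 278 normalized counts in Col MMS, against 134, 172 and 131 in Col mock. Its rise was 1.06 in Col, 1.56 in X, 1.89 in W, 1.80 in XW and 2.29 in tsk (SE 0.17). OPR3 rose by 0.38 in Col (adjusted p = 0.0068), 1.01 in X, 0.97 in W, 0.68 in XW and 0.70 in tsk. LOX4 rose by 0.87 in Col, 1.86 in X, 1.61 in W and 0.61 in tsk, and in XW, where it was higher than in Col already in mock, the value was 0.41 (adjusted p = 0.13). The tsk call was lost without tsk mock replicate 1 (adjusted p = 0.064) or tsk MMS replicate 3 (adjusted p = 0.16). AOC1 fell in Col (-0.42, adjusted p = 0.016) and rose in X (0.62, adjusted p = 0.00065) and tsk (0.55, adjusted p = 0.0021). In Col the AOC1 call was lost without Col mock replicate 2 (adjusted p = 0.084) or Col MMS replicate 3 (adjusted p = 0.14), and that of OPR3 without Col mock replicate 1 (adjusted p = 0.05) or Col MMS replicate 2 (adjusted p = 0.069).

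**Figure D3:**
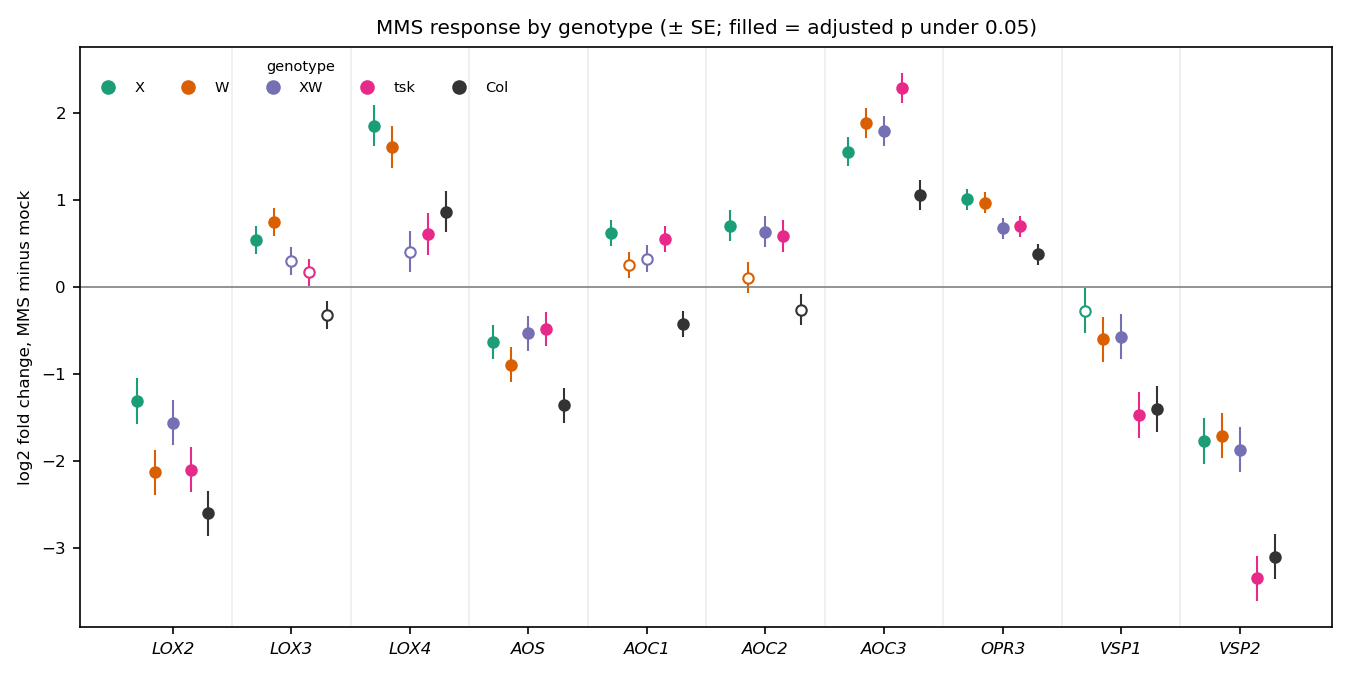
Log2 fold change ± SE, MMS minus mock, of each gene in each genotype, with filled points for adjusted p under 0.05. LOX2, AOS and VSP2 lie below 0 in all 5 genotypes, AOC3 and OPR3 above 0 in all 5, and VSP2 reaches -3.10 in Col and -3.35 in tsk.

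The difference between a mutant's MMS response and that of Col was tested as an interaction term. Responses were higher than in Col for 3 members in X (LOX3, AOC1 and AOC2), 4 in W (LOX3, AOC3, OPR3 and VSP2), 4 in XW (AOC1, AOC2, AOC3 and VSP2) and 2 in tsk (AOC1 and AOC3), and lower for none. Of all genes 1.08% had a higher and 0.908% a lower response in X, 4.4% and 2.62% in W, 3.85% and 5.07% in XW, and 1.37% and 1.13% in tsk. On the FPKM values these were 0.741% and 1.38% in X and 2.92% and 4.17% in W, and edgeR gave 1.82% and 0.849% in tsk. VSP2 differed by 1.39 in W (SE 0.37, adjusted p = 0.02) and 1.22 in XW (adjusted p = 0.035), by 1.33 in X (adjusted p = 0.054) and by -0.25 in tsk (adjusted p = 0.85). LOX2 differed by 1.29 in X (adjusted p = 0.064) and 1.04 in XW (adjusted p = 0.082), and neither value passed the test. AOC3 differed by 1.23 in tsk (SE 0.24, adjusted p = 0.0033). These counts rest on single libraries: leaving out 1 gave 1 to 7 called in X, 1 to 6 in W, 0 to 5 in XW and 2 to 4 in tsk. None was called in XW without Col mock replicate 2, XW mock replicate 3 or XW MMS replicate 1.

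Whether X and W add up was asked with XW minus X minus W plus Col on the log2 scale. No targeted gene was lower in XW, so the reading as a sum rests on the label of that genotype. In mock no member was called (5.62% of all genes were higher and 4.91% lower), none had an unadjusted p under 0.05 in limma, and edgeR, DESeq2 and the FPKM values called none, while the compared groups alone called AOS (-0.56, adjusted p = 0.032). Under MMS 8 of 10 were lower in XW than the sum of the single mutants, against 5.08% of all genes (3.12% were higher), or 7 of 10 against 3.22% (5.46% higher) on the FPKM values, and all 10 had a negative value (median -1.05). The largest were VSP2 (-1.77, SE 0.37, adjusted p = 0.0028), VSP1 (-1.74, adjusted p = 0.0029) and LOX4 (-1.61, adjusted p = 0.003), and LOX3 had -1.43 (adjusted p = 0.00017). AOC2 (-0.75, adjusted p = 0.064) and LOX2 (-0.78, adjusted p = 0.21) were not called. In plain levels, VSP1 averaged 389 normalized counts in XW MMS, 408 in X MMS and 454 in W MMS, against 141 in Col MMS. The XW libraries overlapped those of each single mutant. AOS (-0.94) lost its call without any of 8 single libraries, from Col MMS replicate 1 (adjusted p = 0.054) to X MMS replicate 2 (adjusted p = 0.11).

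Because family members are read against each other per gene length, FPKM values were used for shares. LOX3 and LOX4 together made 7.33% ± 1.73 of the summed FPKM of the 3 lipoxygenases in the 15 MMS libraries and 1.47% ± 0.315 in the 15 mock libraries (SD). AOC3 made 7.44% ± 1.64 of the 3 cyclases under MMS and 2.99% ± 0.593 in mock. VSP2 made 39.1% ± 6.9 of the VSP pair under MMS and 64.3% ± 3.97 in mock, and the ranges, 29.4% to 53.8% and 56.7% to 72.6%, did not overlap. Libraries of 5 genotypes are pooled here, so these SDs include differences between genotypes. Within MMS the VSP2 share was 47.4% ± 5.64 in XW, 45% ± 3.67 in W, 35.9% ± 2.05 in X and 34% ± 4.22 in tsk, against 33.1% ± 0.572 in Col (n = 3 each). Whatever the condition, LOX2 stayed the main lipoxygenase transcript of the 3 and AOC2 the main cyclase transcript, with 89% to 99.1% and 76.6% to 85.1% over all libraries.

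**Figure D4:**
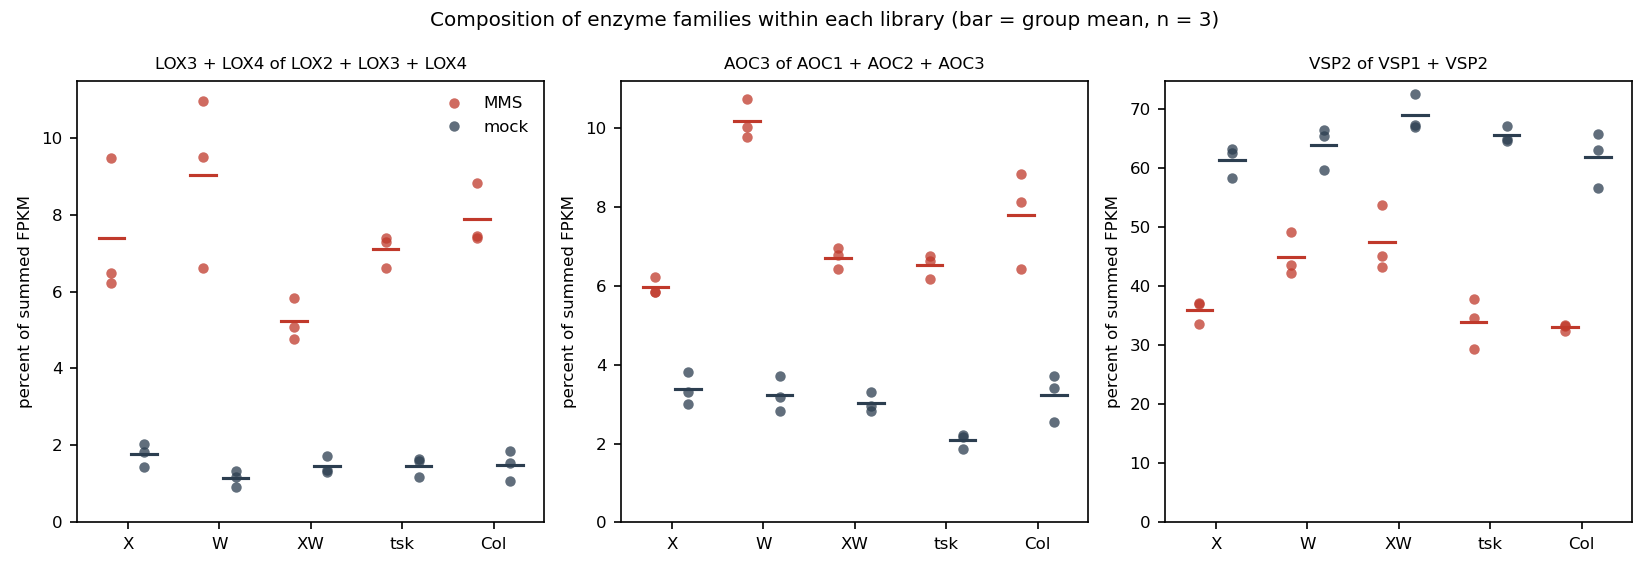
Share of each family's summed FPKM, in percent, made by LOX3 and LOX4, by AOC3 and by VSP2, per library and genotype, MMS left of mock, bars showing group means (n = 3). Every MMS library lies above every mock library in the first and second panels and below every mock library in the third, where VSP2 averages 39.1% under MMS and 64.3% in mock.

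The order of the groups differed between members. LOX2 was lowest in Col MMS (1448 normalized counts), then tsk, W, X and XW MMS (3908), and a gap without overlap separated these from X mock (8377), the lowest mock group. AOS was lowest in Col MMS (1310), without overlap with the next group, W MMS (2642), and highest in W mock (4890). For LOX3, each group overlapped its neighbour from Col MMS (215) to W MMS (465). LOX4 ran from Col mock (69.8) to W MMS (300), and Col MMS, tsk MMS and XW MMS (227) overlapped one another. AOC1 and AOC2 were lowest in Col MMS (486 and 2660) and highest in tsk MMS (1481 and 8251). AOC3 had its lowest mean in Col mock (146), and gaps set Col MMS (304) apart from W mock (197) below it and from X MMS (571) above it. OPR3 ran from Col mock (677) to W MMS (1690), with a gap between XW mock (974) and tsk MMS (1169). VSP2 was lowest in Col MMS (49.1) and tsk MMS (57.1), which overlapped each other and lay clear of X MMS (163), and VSP1 had the same 2 groups lowest (141 and 157), clear of XW MMS (389).

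Libraries of 1 group also varied together. With each library's deviation from its group mean, all 45 pairs of members were positively correlated over 30 libraries (Pearson r 0.19 to 0.87, median 0.60). Over the library values themselves 28 of 45 pairs were positive (-0.68 to 0.95). All values of a library share its seedlings, depth and scaling, so these are descriptions. The genes most like each member over the 30 libraries were APK, AKN2 and CORI3 for LOX2 (r = 0.96 each) and APK, AT5G23820 and AT4G23670 for VSP2 (0.94 each). OPCL1, which encodes a CoA ligase of jasmonate synthesis, was most like LOX3 (0.82), before AT4G36010 and AT5G02170 (0.80 each). LTI65, AT2G18540 and AT3G53040 were most like AOS (0.92, 0.92 and 0.91), and AT5G35735, AT4G36010 and AT1G54050 most like OPR3 (0.93 each).

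Other genes of the pathway were read from lists. Of 14 measured further synthesis genes, 4 were higher and none lower in X MMS than in Col MMS, 4 and 1 in W MMS, 5 and 1 in XW MMS and 4 and 3 in tsk MMS, with medians of 0.10, 0.11, 0.05 and -0.00. Of all genes 6.46% were higher and 4.5% lower in X MMS, and 7.75% and 3.93% in W MMS. The shares were 12.8% and 12.5% in XW MMS and 12.8% and 17.5% in tsk MMS. OPCL1 rose in all 4 (log2 fold change 0.97 in X, 0.62 in W, 0.81 in XW and 0.61 in tsk), and so did AOC4, a further cyclase gene (0.41, 0.58, 0.70 and 0.64). Within Col, MMS raised ACX1, an acyl-CoA oxidase of beta-oxidation (1.99), and lowered the desaturase genes FAD8 (-1.29) and FAD3 (-0.99), with 7 higher and 4 lower of 14. Of all genes 35.5% were higher and 35.6% lower there.

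Over the 5 genotypes, MMS raised 35.5% to 36.3% of all genes and lowered 35.5% to 36.9%. Of 10 measured inactivation genes, 9 rose with MMS in each of the 5 genotypes (median log2 fold change 3.73 in X, 3.97 in W, 4.19 in XW, 3.41 in tsk and 2.53 in Col). They include CYP94C1, which oxidises the active conjugate (5.36 in Col), JOX2, which hydroxylates jasmonic acid (4.16 in Col), and IAR3, an amidohydrolase (1.93 in Col). Compared with Col MMS, 2 of the 10 were higher in X, 7 in W, 5 in XW and 2 in tsk, and none was lower. CYP94B3, which hydroxylates the conjugate, was higher in all mutants than in Col under MMS, by 1.33 in X, 1.80 in W, 2.04 in XW and 1.12 in tsk. JAZ repressor genes rose with MMS in 8 of 11 in Col, 10 in X, W and tsk and 9 in XW, and JAZ4 fell in all 5. JAZ1 rose by 2.79 in Col, JAZ6 by 1.27 and JAZ7 by 4.23. Against Col MMS, 5 of 11 were higher in X, 8 in W, 6 in XW and 7 in tsk, and 1, JAZ4, was lower in each. In that order 6.46%, 7.75%, 12.8% and 12.8% of all genes were higher, and 4.5%, 3.93%, 12.5% and 17.5% lower.

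Among 13 receptor and transcription factor genes, 2 were higher and 1 lower in X mock, 1 and 0 in W mock, 6 and 2 in XW mock. In tsk mock 2 were higher and 1 lower. The medians were -0.00 in X, 0.01 in W, 0.11 in XW and -0.02 in tsk. The shares of all genes in mock are given above. ORA47, an ERF factor that activates jasmonate synthesis genes, had the highest log2 fold change of the list in each mutant. It had 67.3 to 85.4 normalized counts in X mock, 85.9 to 128 in W mock, 220 to 297 in XW mock and 27.4 to 36.3 in tsk mock, against 6.59 to 16.4 in Col mock. No mutant library reached down to Col. The log2 fold changes were 2.93, 3.39, 4.58 and 1.68. Under MMS ORA47 lay between 4.36 and 15.4 in all groups and was called in no mutant. MYC2 was higher in X MMS (0.46), W MMS (0.48) and tsk MMS (0.34) and was 0.19 in XW MMS (adjusted p = 0.25). Only 5 of 11 listed response genes were measured. Of these 5, 5 were higher in X MMS than in Col MMS, 3 in W, 4 in XW and 3 in tsk, and none was lower. Of all genes 6.46%, 7.75%, 12.8% and 12.8% were higher in that order. CORI3, which encodes a cystine lyase, rose by 0.83 in X, 0.85 in W, 1.56 in XW and 0.90 in tsk, and within Col it fell with MMS (-1.95).

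Markers of tissue and handling moved with some of these results. Summed FPKM of 24 leaf photosynthesis genes was 26937 to 30391 in X MMS, 25081 to 30105 in W MMS, 25528 to 25973 in XW MMS and 19877 to 23022 in tsk MMS, against 21658 to 24019 in Col MMS. Sums were thus above Col in X, W and XW, where LOX2 and the VSP genes were higher, and overlapped it in tsk. In tsk MMS 6 members, among them AOS and the 3 cyclase genes, were higher. Of the 24 leaf genes, 17 were higher and 3 lower in X MMS, 16 and 0 in W, 10 and 0 in XW and 1 and 4 in tsk. The shares of all genes in these comparisons are given above. In mock the sums were 47785 to 50876 in X and 39246 to 42585 in W, against 43565 to 45678 in Col. They were 41702 to 45870 in XW mock and 37939 to 42392 in tsk mock. The sums lay above Col in X mock, where no member was called, and below it in W mock, where VSP1 and VSP2 were called higher. Gene by gene, 7 of the 24 leaf genes were higher and 2 lower in X mock, and 0 and 2 in W mock. The counts were 1 and 1 in XW mock and 1 and 4 in tsk mock, and the shares of all genes in mock are given above. All 24 leaf genes fell with MMS in each genotype. Summed FPKM of 13 touch and wound genes was 541 to 570 in X MMS, 609 to 709 in W MMS, 633 to 742 in XW MMS and 650 to 696 in tsk MMS, against 385 to 512 in Col MMS. In mock it was 162 to 201 in X, 127 to 200 in W, 360 to 471 in XW and 86.1 to 113 in tsk, against 70.2 to 76.6 in Col. Root markers summed to 78.5 to 96.7 in X MMS, 91.7 to 92.8 in W MMS, 72.3 to 83.4 in XW MMS and 112 to 119 in tsk MMS, against 89.1 to 106 in Col MMS. The part of these markers in the members' results was not tested.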

How the data were processed

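Transcripts were measured by paired-end RNA sequencing in 30 libraries. The deposited signal is normalized counts (each library's reads scaled by its own size factor), and the authors also deposited FPKM. Per the submitters' processing notes, STAR, DESeq2 1.30.1 and TAIR10 were used. The counting rule and strand are not given in the sources used here. All deposited signal values were whole multiples of a step per library (100% of values, tolerance 0.01), so whole reads were recovered. The authors' 30 single-library files held values equal to those of the whole-series table.

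Genes with at least 10 normalized counts in at least 3 libraries were tested (20256, with 148 removed) in limma 3.58.1 under R 4.3.3. Values entered as log2(normalized count + 1), 1 coefficient stood for each group over all 30 libraries (20 residual degrees of freedom), and variances were moderated with limma's trended empirical Bayes step. Fold changes on this scale understate changes of low genes. P-values were adjusted by Benjamini-Hochberg within each comparison and called under 0.05. The procedure was tested on simulated data. Alternatives were edgeR 4.0.16 and DESeq2 1.42.0 on recovered reads, FPKM on log2(FPKM + 0.1), a pseudocount of 10, no filter, the compared groups alone, a replicate block and leaving out each library.

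The members and lists were chosen with earlier results of these data known. Named genes were all members, at most 3 called genes with the smallest adjusted p per further list and comparison, with their values in other comparisons, and the 3 genes most like each of LOX2, LOX3, AOS, OPR3 and VSP2. 1 transporter gene was dropped from a list because its locus did not match its name. Positions and sequences come from RefSeq's TAIR10.1.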

Additional observations from a re-analysis of the deposited data

Results flagged for a closer look

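In 13 cases a mutant's response to MMS differed from that of Col by the interaction test (limma, adjusted p under 0.05). In X the difference was 0.87 for LOX3, 1.03 for AOC1 and 0.97 for AOC2 on the log2 scale. In W it was 1.07 for LOX3, 0.83 for AOC3, 0.59 for OPR3 and 1.39 for VSP2. In XW it was 0.75 for AOC1, 0.90 for AOC2, 0.74 for AOC3 and 1.22 for VSP2. In tsk it was 0.97 for AOC1 and 1.23 for AOC3. The 4 sets share the Col libraries. Of all genes 1.08% had a higher and 0.908% a lower response in X, 4.4% and 2.62% in W, 3.85% and 5.07% in XW, and 1.37% and 1.13% in tsk. Leaving out 1 library gave 1 to 7 called members in X, 1 to 6 in W, 0 to 5 in XW and 2 to 4 in tsk. On the FPKM values 1 member was called in X, 3 in W, 2 in XW and 2 in tsk.

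For 8 members the libraries labelled XW departed under MMS from the sum of the single mutants. This was tested as XW minus X minus W plus Col on the log2 scale, and the combined genotype rests on its label. Of all genes 5.08% were lower and 3.12% higher by this test. The values were -1.43 for LOX3, -1.61 for LOX4, -0.94 for AOS, -1.05 for AOC1, -1.05 for AOC3, -0.85 for OPR3, -1.74 for VSP1 and -1.77 for VSP2. They share the Col MMS libraries with the comparisons of each mutant against Col.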

How the results depend on the processing

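No member changed direction against a call under any alternative. Of 210 member values, 202 kept their side of the threshold with DESeq2, 200 with edgeR, 195 with FPKM, 208 with a pseudocount of 10, 210 with no filter and 184 with the compared groups alone. With the compared groups alone, the number of called members was 3 in X mock against Col mock (0 in the model of all libraries), 5 in W mock (2), 4 in tsk mock (2), 5 for the response of X (3), 4 for the response of tsk (2) and 1 for the non-additive part in mock (0). Over all genes in X mock against Col mock, the compared groups alone called 1755 higher and 1422 lower, against 868 and 648 in the model of all libraries. They called 7.75% of all genes higher and 7.97% lower in W mock, and 13.4% and 20.2% in tsk mock. For the response of X they called 2.28% and 1.78%, and for that of tsk 1.9% and 1.71%. For the non-additive part in mock they called 4.12% and 4.01%. In XW MMS against Col MMS, edgeR on recovered reads called 2776 higher and 2456 lower, against 2591 and 2541. DESeq2 called 5 for the response of X, with 1.48% of all genes higher and 1.19% lower. FPKM values gave 1 for the response of X, 2 for that of XW (4) and 1 for XW mock against tsk mock (2). On these values 0.741% of all genes were higher and 1.38% lower for the response of X. The shares were 3.06% and 5.38% for the response of XW, and 11.4% and 19.4% for XW mock against tsk mock. The cause was not tested.

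With 1 library left out, the called members numbered 0 to 0 in X mock, 0 to 4 in W mock, 3 to 5 in XW mock and 2 to 3 in tsk mock, and 10 to 10, 9 to 10, 9 to 10 and 4 to 7 in X, W, XW and tsk MMS, each against Col. They numbered 8 to 9, 7 to 8, 5 to 7, 7 to 9 and 7 to 8 for MMS against mock in X, W, XW, tsk and Col. Response differences gave 1 to 7, 1 to 6, 0 to 5 and 2 to 4 in X, W, XW and tsk, the non-additive part 0 to 0 in mock and 7 to 9 under MMS, and XW against tsk 1 to 4 in mock and 3 to 5 under MMS. Fewer libraries enter these fits.

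Replicate numbers did not pair the libraries: deviations of libraries with the same number correlated at a median of 0.00135 (-0.201 to 0.122, 135 pairs). With a replicate block, 207 of 210 member values kept their side and 3 lost their call. The lowest member value was 48 reads in a library. Counting error was 0.934% to 14.4% of the mean over the 100 pairs of member and group, and in 12 of them, such as VSP2 in Col MMS (14.4%), the spread between libraries was smaller (1.94%).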
